A study of Mus musculus with 8 samples.

Results

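Genes of the activin, TGF-beta and BMP signalling system were followed in the renal cortex of mice on a high fat or a control diet. The set holds 10 genes, taken by their symbols from a table of 23504 genes, and all 10 symbols were present. They are the ligand genes Inhbb, Inhba, Tgfb1, Tgfb2 and Bmp7, the activin receptor genes Acvr1b, Acvr2a and Acvr2b, the inhibitory SMAD gene Smad7 and the target gene Id1. The mice were wild type C57Bl6/J animals that began a high fat or a control diet at 6 weeks of age and stayed on it for 9 weeks, to 15 weeks of age. Outer cortex was dissected by hand and its RNA sequenced after removal of ribosomal RNA, with 4 libraries per diet (high fat A, B, F and G, control I, J, L and M). The labels do not say that each library came from its own mouse, so each p-value reflects only how far these libraries spread, which may be technical.

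Ligands of this family are secreted as dimers and bring together type I and type II receptor kinases on the cell surface. Activins and TGF-betas pass the signal to SMAD2 and SMAD3, while BMPs pass it to SMAD1, SMAD5 and SMAD9. In the kidney, BMP7 is known as a survival and differentiation factor of the epithelium, TGF-beta 1 as a driver of scarring, and activins as signals of tubular injury and repair. The inhibitory SMADs, SMAD6 and SMAD7, and the ID proteins are induced by the same pathways and are often read as signs of their activity.

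Under the high fat diet 1 member rose, 1 fell and the remaining 7 of the 9 tested did not pass. Inhbb, which encodes the beta B subunit of activin B, rose 3.92-fold from a low level. Id1, which encodes an inhibitor of helix-loop-helix transcription factors and is a classical BMP target, fell to 0.612 of its control level, a call that several fits with fewer libraries did not keep. A gene was called at an adjusted p under 0.05 in edgeR's quasi-likelihood test (Benjamini-Hochberg over all genes tested), and 9.99% of the 14711 genes tested were called in this way. An unadjusted p under 0.05 in that test, given below for some genes, was common: of the 14711 genes 1952 had one on the higher side and 2074 on the lower. The median log2 fold change was 0.077 over the 9 tested members and -0.0023 over all genes tested. Levels are given as CPM, counts per 1e6 counts after TMM scaling, with the ribosomal RNA precursor Rn45s left out. Rn45s took 50.3% of the counts in control J and 1.23% to 13.3% in the other 7 libraries, so control J had 13993652 counts left, against 21793784 to 30403685 in the others. Proximal tubule markers summed to between 22382 and 24762 CPM in the 8 libraries, though of these 8 markers Slc34a1 and Slc4a4 rose and Cubn fell. Fat markers summed to at most 1.68 CPM, with none of the 6 passing the filter on low counts. In these bulk libraries fewer cells of a type and less RNA per cell cannot be told apart.

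The members lay far apart in level, as far as a value per transcript length can show. On this scale (TPM, the deposited FPKM rescaled to 1e6 without Rn45s), Id1 averaged 35.9 ± 11.4 (SD of 8 libraries) and Bmp7 32.6 ± 3.85. Acvr1b, the gene of the type I activin receptor ALK4, followed at 25.7 ± 3.32. The type II receptor gene Acvr2a stood at 13.7 ± 0.847 and Smad7 at 12.2 ± 1.01. Acvr2b averaged 7.57 ± 2.05, Tgfb1 4.16 ± 0.921 and Inhbb 1.44 ± 1.04. The lowest were Tgfb2 at 0.622 ± 0.155 and Inhba, which ran from 0 to 0.187. Id1 was above Bmp7 in only 5 of 8 libraries, namely every control library and high fat B. Inhbb was above Tgfb2 in 6, namely every high fat library and control I and M. The order of these neighbours thus went partly with diet, and the SD of 8 libraries includes the diet differences of Id1 and Inhbb. Bmp7 was above Acvr1b, Acvr1b above Acvr2a and Tgfb1 above Inhbb in all 8. Acvr2a was above Smad7 in 8 libraries and Smad7 above Acvr2b in 7.

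**Figure D1:**
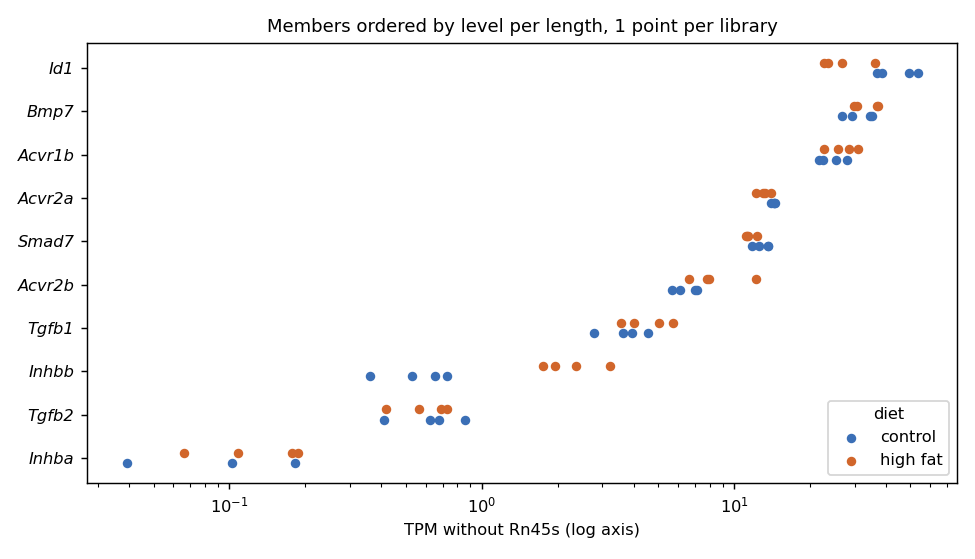
The 10 members ordered by level per length, with TPM on a log axis and 1 point per library (blue for control, orange for high fat; the control library of Inhba at 0 cannot be drawn). The points of both diets overlap except for Inhbb, where all 4 high fat points lie to the right of the control points, and Id1, where all 4 lie to the left.

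Among the ligands, the largest difference was that of Inhbb (GRCm38 chromosome 1, 119415465 to 119422248, minus strand). On the control diet its level was 1.41 CPM in library I, 0.856 in J, 1.13 in L and 1.48 in M. On the high fat diet it was 5.06 CPM in A, 7.27 in B, 3.98 in F and 3.66 in G. Every high fat library lay above every control library, a separation in one direction or the other that 17.5% of all tested genes showed. The levels averaged 4.99 ± 1.63 against 1.22 ± 0.286 CPM (SD, n = 4 each), a log2 fold change of 1.97 ± 0.24 (SE; 95% interval 1.43 to 2.51) with adjusted p = 0.0020 in edgeR. Behind these levels lie 11 expected counts in control J, 32 to 47 in the other control libraries and 90 to 156 in the high fat libraries. The call held in all 8 fits without 1 library, with log2 fold changes from 1.74 to 2.09. The authors' deposited table of gene symbols lists Inhbb with a fold of 4.10 and a posterior probability of equal expression of 3.39e-06, and Inhbb is the only member in either of their comparison tables.

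The sequence before the start of Inhbb is shown because it is the member with the largest change, and those of Smad6 and the Id genes because their products stand downstream of BMP receptors and the genes are described further on. Each run holds 250 bases before and 10 bases after the start (RefSeq, GRCm38.p6), written 5′ to 3′ on the gene's strand, and capitals mark matches on either strand to GTCTAGAC, the palindrome that SMAD3 and SMAD4 bind, to its related short form CAGAC, or to GGCGCC, a motif bound by the BMP SMADs. The regions are chr1:119422239-119422498 (minus strand) for Inhbb, chr9:64022050-64022309 (minus) for Smad6, chr12:25096083-25096342 (minus) for Id2, chr4:136143572-136143831 (plus) for Id3 and chr13:48260866-48261125 (plus) for Id4.
Inhbb: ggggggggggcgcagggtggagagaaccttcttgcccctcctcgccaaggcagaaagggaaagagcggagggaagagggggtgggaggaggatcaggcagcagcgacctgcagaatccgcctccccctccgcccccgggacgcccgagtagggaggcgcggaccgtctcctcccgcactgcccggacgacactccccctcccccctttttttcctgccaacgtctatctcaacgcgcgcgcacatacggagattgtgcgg
Smad6: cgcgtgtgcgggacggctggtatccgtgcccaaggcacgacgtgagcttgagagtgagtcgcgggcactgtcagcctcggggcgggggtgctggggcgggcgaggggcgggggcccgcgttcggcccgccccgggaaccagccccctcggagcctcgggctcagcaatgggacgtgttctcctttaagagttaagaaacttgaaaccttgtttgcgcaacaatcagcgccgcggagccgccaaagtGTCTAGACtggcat
Id2: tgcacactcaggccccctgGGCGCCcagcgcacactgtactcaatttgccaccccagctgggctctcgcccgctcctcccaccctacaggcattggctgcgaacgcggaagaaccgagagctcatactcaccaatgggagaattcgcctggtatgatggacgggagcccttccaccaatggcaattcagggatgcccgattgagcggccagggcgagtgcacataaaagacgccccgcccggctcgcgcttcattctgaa
Id3: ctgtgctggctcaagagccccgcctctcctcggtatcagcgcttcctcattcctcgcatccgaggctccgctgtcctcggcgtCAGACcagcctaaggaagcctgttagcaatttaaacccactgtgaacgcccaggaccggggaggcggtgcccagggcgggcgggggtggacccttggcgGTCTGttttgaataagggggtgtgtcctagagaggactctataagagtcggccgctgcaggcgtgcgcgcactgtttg
Id4: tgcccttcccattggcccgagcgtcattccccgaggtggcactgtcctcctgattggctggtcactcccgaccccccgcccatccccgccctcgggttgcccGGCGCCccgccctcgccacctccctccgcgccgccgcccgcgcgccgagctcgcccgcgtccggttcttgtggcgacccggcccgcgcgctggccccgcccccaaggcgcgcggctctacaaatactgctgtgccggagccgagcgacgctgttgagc
The Inhbb run holds none of the 3 motifs. The windows of Smad1, Smad5 and Smad9, whose products also stand downstream of BMP receptors, are not printed. Smad5 did not pass (log2 fold change -0.040, adjusted p = 0.66 in edgeR) and has more than 1 window. GGCGCC lies in 1 of the Smad5 windows and CAGAC in another. That of Smad1 holds none of the 3 motifs and that of Smad9 holds GGCGCC. Smad6 holds GTCTAGAC across its annotated start, a motif found in 0.177% of the 32851 RefSeq promoter windows of the same length. Id2 and Id4 hold GGCGCC, which 9.96% of windows hold, and Id3 holds CAGAC at 2 places, as 44.0% of windows do at 1 place or more. GTCTAGAC was added to the search after the sequences were seen. A match is only a description of these letters. Promoter windows were found for 7 of the 10 members, and Bmp7, Smad7 and Id1 had none in the table.

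Inhba, the gene of the beta A subunit that forms activin A, was close to silent and did not pass the filter on low counts. It had 3, 1, 3 and 2 expected counts in high fat A, B, F and G, and 2, 0, 1 and 4 in control I, J, L and M. Both diets therefore lie at or near the limit that a count of 0 allows, which is 0.0947 to 0.233 CPM (3 counts per library), and no fold is given. A difference in Inhba was not detectable at this depth. Exons of Inhba overlap the bounds of the antisense gene Gm48444 and the pseudogene B230303A05Rik, whose own exons were not compared. Where exons coincide and counting does not use strand, their reads cannot be told apart from those of Inhba.

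The remaining ligand genes did not pass. Tgfb1, the profibrotic TGF-beta, read 3.70, 4.38, 5.05 and 5.77 CPM in high fat A, B, F and G. In control I, J, L and M it read 2.89, 4.43, 3.77 and 4.48 CPM, so the diets overlapped. The log2 fold change was 0.29, with a 95% interval from -0.084 to 0.67 (adjusted p = 0.30 in edgeR), which still allows a rise of up to 1.59-fold. Tgfb2, a second TGF-beta isoform, lay between 0.978 and 2.05 CPM in all 8 libraries, with a log2 fold change of -0.085 (95% interval -0.62 to 0.45, adjusted p = 0.86 in edgeR). Exons of Tgfb2 overlap the bounds of the antisense gene Gm29491, whose own exons were not compared. The Tgfb2 counts thus carry the same limit of strand as those of Inhba. Bmp7 was by far the most abundant of the 5 ligand genes. Its levels were 30.1, 30.6, 34.9 and 34.8 CPM in high fat A, B, F and G and 28.7, 28.3, 34.3 and 32.0 CPM in control I, J, L and M. That is a log2 fold change of 0.077 with a narrow 95% interval of -0.098 to 0.25 (adjusted p = 0.58 in edgeR), so a change of Bmp7 larger than 1.19-fold in either direction lies outside the interval. The 3 ligand genes had overlapping values in the 2 diets.

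**Figure D2:**
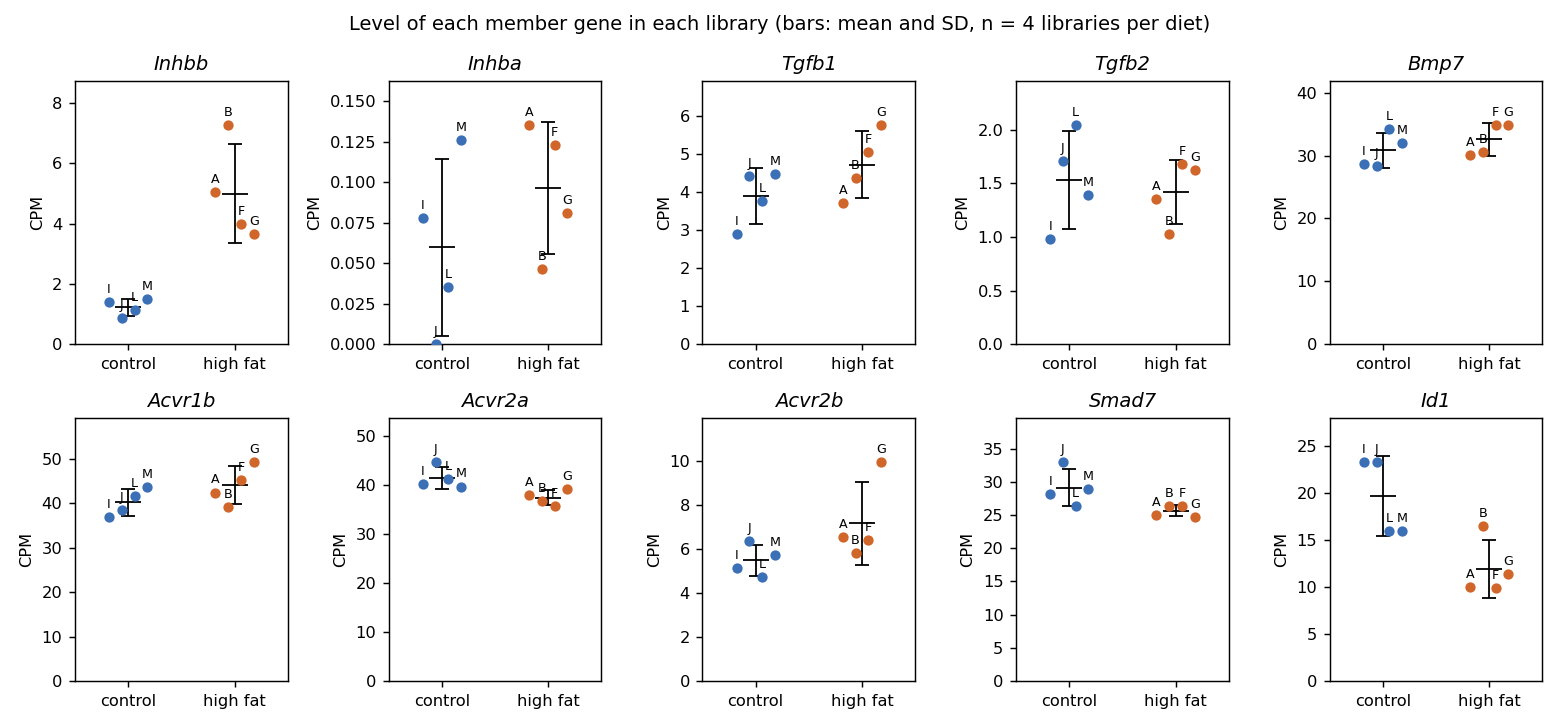
CPM of each member in each library (points with library letters; bars show the mean and SD of 4 libraries per diet; all axes start at 0). Inhbb is higher in all 4 high fat libraries, and Id1 is lower in high fat A, F and G than in every control library, with high fat B at 16.5 among the lower control values.

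The 3 receptor genes were expressed in every library and none passed, in edgeR or in DESeq2. Acvr1b read 42.4, 39.3, 45.1 and 49.4 CPM in high fat A, B, F and G against 36.9, 38.5, 41.7 and 43.7 CPM in control I, J, L and M, with a log2 fold change of 0.13 (95% interval -0.045 to 0.31, adjusted p = 0.32 in edgeR). Acvr2a, which encodes the type II receptor ActRIIA, read 38.0, 36.7, 35.7 and 39.1 CPM on the high fat diet against 40.2, 44.7, 41.2 and 39.7 CPM on the control diet. All 4 high fat values lay below all 4 control values in CPM (in TPM the diets overlapped, with 14.02 the highest high fat value and 13.99 the lowest control value), by a log2 fold change of -0.15 (95% interval -0.27 to -0.018, unadjusted p = 0.029, adjusted p = 0.13 in edgeR). Exons of Acvr2a overlap the bounds of Orc4 on the opposite strand, whose own exons were not compared. Part of the Acvr2a counts may belong to Orc4 where exons of both coincide and strand was not used. Acvr2b, which encodes the other type II activin receptor, read 6.55, 5.83, 6.41 and 9.99 CPM in high fat A, B, F and G and 5.12, 6.38, 4.73 and 5.71 CPM in control I, J, L and M. The groups overlapped, and high fat G stood well above the other 7 libraries. Its log2 fold change was 0.41 (95% interval 0.034 to 0.79, unadjusted p = 0.035, adjusted p = 0.15 in edgeR) and was 0.21 without high fat G. As a description with no test, the ratio of Acvr2a to Acvr2b in TPM was 2.04 to 2.54 in the control libraries and 1.14 to 1.84 in the high fat libraries.

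Downstream of the receptors, Smad7 and Id1 were both lower on average on the high fat diet, and only Id1 passed. Smad7, an antagonist that blocks receptor signalling and is induced by TGF-beta and BMP, read 25.1, 26.4, 26.4 and 24.8 CPM in high fat A, B, F and G against 28.2, 33.1, 26.4 and 29.0 CPM in control I, J, L and M. The groups overlapped, with control L just below high fat B and F, and the log2 fold change was -0.18 (95% interval -0.34 to -0.020, unadjusted p = 0.031, adjusted p = 0.14 in edgeR). Id1 (GRCm38 chromosome 2, 152736251 to 152737410, plus strand) read 9.98 CPM in high fat A, 16.5 in B, 9.90 in F and 11.3 in G, against 23.3 CPM in control I, 23.3 in J, 15.9 in L and 15.98 in M. High fat B lay above control L and M, so the groups overlapped in CPM. In TPM they did not overlap, though narrowly, with 36.03 in high fat B and 36.74 in control L. The means were 11.9 ± 3.12 against 19.6 ± 4.25 CPM (SD, n = 4 each), a log2 fold change of -0.71 ± 0.18 (SE; 95% interval -1.11 to -0.30) with adjusted p = 0.036 in edgeR. The call was kept in 3 of 8 fits without 1 library, those without high fat B, control L or control M. It was lost without high fat A, F or G and without control I or J, with an adjusted p of up to 0.099 in edgeR and log2 fold changes from -0.61 to -0.90 over the 8 fits. Without control J and high fat G together its adjusted p was 0.17, and with a robust quasi-likelihood fit 0.057, both in edgeR.

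**Figure D3:**
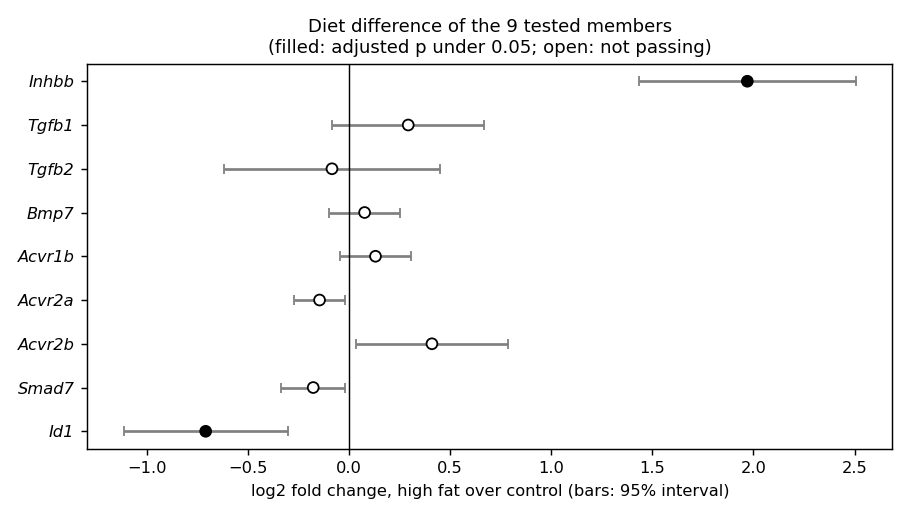
Log2 fold change, high fat over control, of the 9 tested members (points; filled where the adjusted p is under 0.05) with 95% intervals (bars). Inhbb at 1.97 and Id1 at -0.71 are filled, and the intervals of Tgfb1, Tgfb2, Bmp7 and Acvr1b span 0.

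**Figure D4:**
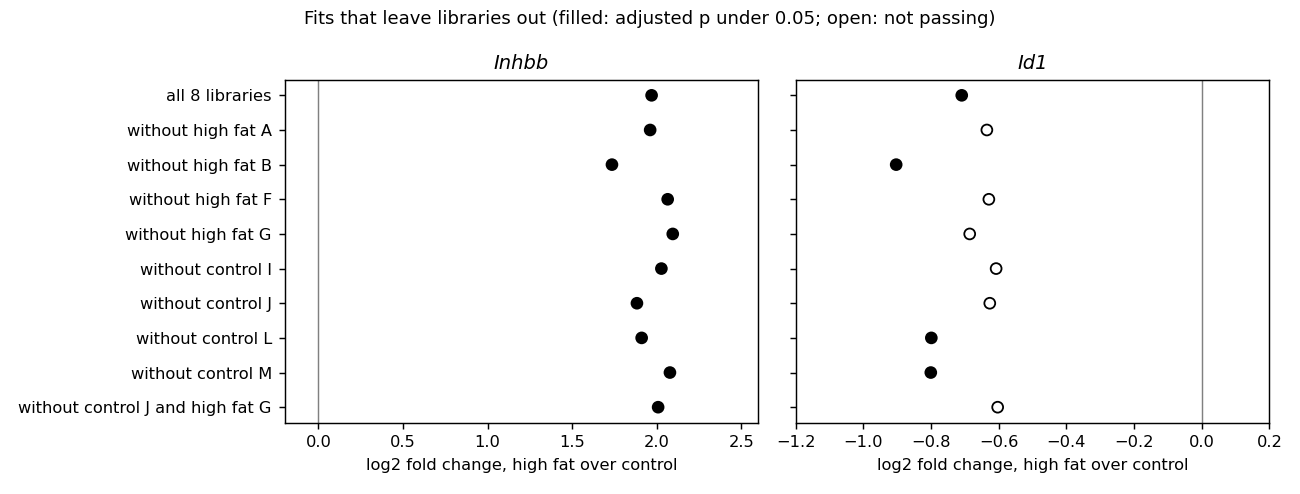
Log2 fold change of Inhbb and Id1, high fat over control, with all 8 libraries and with libraries left out (filled where the adjusted p is under 0.05). Inhbb stays filled in every fit drawn, from 1.74 to 2.09, while Id1 is open in 6 of them.

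Genes whose levels followed those of a called member most closely were sought by the root mean square difference of log2 CPM, centred on the mean of the 8 libraries, among 13447 tested genes of at least 1 CPM. Because the centring spans both diets, a diet difference close to that of the member brings a gene near by itself. The genes found are therefore a description and no further finding about the members. Nearest to Inhbb were Gm5567, a predicted gene (0.379), Anks1b, encoding an ankyrin repeat protein (0.401), and Plin5, encoding a lipid droplet coat protein (0.413). Plin5 stood at 13.3 ± 3.90 CPM on the high fat diet and 4.40 ± 1.49 on the control diet (SD, n = 4 each). Both Plin5 and Inhbb were highest in high fat B, while Gm5567 and Anks1b were highest in high fat F. Among the controls, Plin5 was lowest in M, at 2.90 CPM, where Inhbb was highest, at 1.48 CPM. Nearest to Id1 were Bex4 (0.127), its own paralogue Id3 (0.158) and Akr1c12, an aldo-keto reductase gene of a family with close copies (0.163). Id3 shared with Id1 the high value of library B within the high fat diet, at 44.4 CPM against 29.8 to 30.6 in the others. Bex4 and Akr1c12 were also highest in B within that diet, at 5.64 and 2.61 CPM.

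Outside the members, 102 further genes of the pathway were grouped by role into 8 lists, and 76 of them were tested. Of these, 3 rose, 5 fell and 68 did not pass, a called share of 8 in 76 beside the 9.99% of all genes tested (4.86% rose and 5.13% fell). Their median log2 fold change was -0.036. Of 4 tested ligands close to activin and TGF-beta, Gdf15, a stress-induced ligand of the family, rose from 3.01 ± 0.629 to 4.92 ± 0.862 CPM (SD, n = 4 each), with a log2 fold change of 0.71 and adjusted p = 0.031 in edgeR. The diets overlapped, with 3.70 CPM in high fat G and 3.76 CPM in control M. The call of Gdf15 was kept in 2 of 8 fits without 1 library. Lefty1, a TGF-beta family antagonist of nodal, was next in that list with a log2 fold change of -0.52 (adjusted p = 0.34 in edgeR). None of the 6 tested BMP ligands passed in edgeR or in DESeq2 (2 had an unadjusted p under 0.05 in edgeR), and Bmp6, at 40.2 ± 4.82 against 40.4 ± 4.43 CPM (SD, n = 4 each), was nearly level. Bmp4 (log2 fold change 0.24) and Gdf10 (-0.32) had the smallest p in that list, with adjusted p = 0.15 and 0.14 in edgeR.

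Of 11 tested receptors and coreceptors 1 rose and 1 fell. Tgfbr2, the type II receptor for TGF-beta, read 92.1, 96.3, 111 and 95.8 CPM in high fat A, B, F and G and between 68.5 and 82.5 CPM in the control libraries, so all high fat values were above all control values. Its log2 fold change was 0.37 ± 0.074 (SE) with adjusted p = 0.013 in edgeR, kept in all 8 fits without 1 library and in 7 of 10 other settings. It was lost without control J and high fat G together (adjusted p = 0.065 in edgeR) and in limma on log2 of rescaled FPKM plus 0.1 or plus 1 (adjusted p = 0.061 and 0.059). Bmpr1b, a type I BMP receptor gene, fell from 9.80 ± 0.676 to 7.59 ± 0.531 CPM (SD, n = 4 each; adjusted p = 0.031 in edgeR), kept in 2 of 8 such fits. Among 7 SMAD genes, Smad1, which transmits BMP signals, rose by a log2 fold change of 0.30 (adjusted p = 0.037 in edgeR) and Smad6, the inhibitory SMAD of the BMP branch, fell by 0.31 on the log2 scale (adjusted p = 0.025 in edgeR). Smad6 stood at 10.7 ± 0.436 against 13.3 ± 0.692 CPM (SD, n = 4 each) with no overlap. Smad1 kept its call in 1 of 8 fits without 1 library and Smad6 in 3. Smad9, another SMAD that transmits BMP signals, stood at 2.13 ± 0.400 against 3.28 ± 0.672 CPM (SD, n = 4 each) with no overlap. Its log2 fold change was -0.58, and it did not pass in edgeR (adjusted p = 0.062), while DESeq2 called it as a fall.

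Of 18 tested extracellular binders and inhibitors 1 fell. This was Fstl3, a follistatin-like protein that binds and neutralises activins. It fell from 3.75 ± 0.462 to 2.69 ± 0.318 CPM (SD, n = 4 each; log2 fold change -0.49, adjusted p = 0.046 in edgeR), with no overlap between the diets, but the call was kept in 0 of 8 fits without 1 library (adjusted p from 0.050 to 0.13 in edgeR). Follistatin itself, Fst, averaged 0.225 CPM on the high fat diet and 0.200 CPM on the control diet and was not tested. Twsg1, a modulator of BMPs, was next with a log2 fold change of -0.19 and adjusted p = 0.051 in edgeR. DESeq2 called Twsg1 (adjusted p = 0.036) and not Fstl3 (adjusted p = 0.056), and the authors' deposited table of gene symbols lists Twsg1 with a fold of 0.877. Of the other pathway genes called in edgeR, that table also lists Gdf15, Tgfbr2, Id4 and Acta2. Smad1 is only in the authors' other comparison table, and Bmpr1b, Smad6 and Fstl3 are in neither. None of 12 inhibitors inside the cell or in its membrane passed (edgeR; 3 had an unadjusted p under 0.05), where Pmepa1, a TGF-beta induced inhibitor, had a log2 fold change of 0.42 (adjusted p = 0.085 in edgeR) and the decoy receptor gene Bambi one of -0.43 (adjusted p = 0.11 in edgeR). Among these 12 genes DESeq2 called only Pmepa1 (adjusted p = 0.038 in DESeq2).

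**Figure D5:**
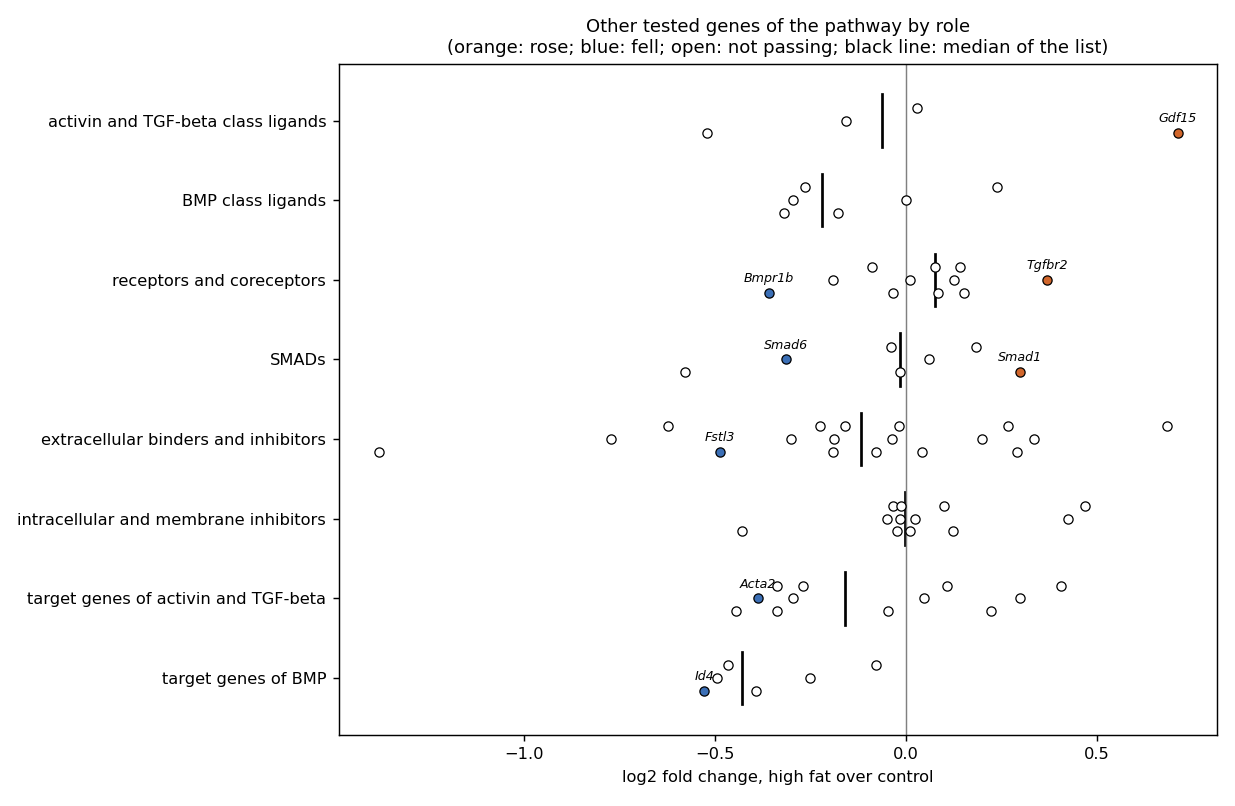
Log2 fold change, high fat over control, of the 76 other tested pathway genes by role (1 point per gene; orange rose, blue fell, open did not pass; black lines are list medians). The 6 points of the BMP target list lie below 0, with a median of -0.43, while the other lists spread to both sides.

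Target genes of the pathway were read in 2 lists. Of 12 tested genes known to be induced by activin or TGF-beta 1 fell and none rose in edgeR, 3 having an unadjusted p under 0.05 on the higher side and 4 on the lower, and 5 were above 0 and 7 below (median log2 fold change -0.16). The one that fell was Acta2, smooth muscle actin, at 31.5 ± 3.03 against 41.3 ± 4.95 CPM (SD, n = 4 each; adjusted p = 0.025 in edgeR), kept in 4 of 8 fits without 1 library, while the fibronectin gene Fn1 had a log2 fold change of 0.41 and passed in DESeq2 (adjusted p = 0.039) but not in edgeR (adjusted p = 0.090). Of 6 tested BMP targets 1 fell and none rose in edgeR, and all 6 log2 fold changes were below 0, with a median of -0.43, and 4 had an unadjusted p under 0.05. Over all 14711 genes tested, 7422 lay below 0 and 2074 of them had an unadjusted p under 0.05, as had 1952 of those above 0. Id4, a paralogue of Id1, read 9.21, 8.39, 7.76 and 6.38 CPM in high fat A, B, F and G against 10.7 to 12.04 CPM in the control libraries. This was a fall of 0.53 on the log2 scale with adjusted p = 0.016 in edgeR, kept in all 8 fits without 1 library. Without control J and high fat G its adjusted p was 0.066 in edgeR. Id2, the most abundant of the Id genes at 233 ± 20.9 against 278 ± 18.6 CPM (SD, n = 4 each), and Id3, at 33.8 ± 7.09 against 46.8 ± 9.24 CPM, had log2 fold changes of -0.25 and -0.47 and did not pass (adjusted p = 0.053 and 0.085 in edgeR). DESeq2 called both of them together with Id4.

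Some markers of tubule segments also differed between the diets. For the thick ascending limb, the summed level of the 6 markers ran from 4466 to 5384 CPM on the high fat diet and from 5434 to 6155 CPM on the control diet, with none at 0 and 3 of 6 called as falls (exact two-sided permutation p = 0.0286 for the log2 sum, the smallest that 70 assignments can give; adjusted p = 0.40 over 14 marker lists). Of 6 markers of collecting duct principal cells, Scnn1g and Avpr2 fell, with sums of 312 to 377 CPM on the high fat diet and 331 to 447 CPM on the control diet (exact two-sided permutation p = 0.17, adjusted p = 0.40). The sums for endothelium, where Id genes are also expressed, overlapped at 454 to 480 and 446 to 476 CPM (log2 difference 0.0066, exact two-sided permutation p = 0.77), and those for mesangium, fibroblasts and smooth muscle at 204 to 233 and 217 to 248 CPM. The part of these cell types in the differences of Inhbb, Id1, Id4, Smad6 or Acta2 was not tested. Red cell markers summed to 4168 CPM in high fat G against 738 to 1837 CPM in the other 7 libraries, with all 5 markers tested and none called, and high fat G was also the library with the highest Acvr2b. Whether these are linked was not tested.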

How the data were processed

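RNA of the outer renal cortex was sequenced in 8 libraries, 4 per diet, made per the labels' protocols with a TruSeq Ribo-Zero Gold kit from 1 ug of total RNA. The submitters' processing notes name CASAVA 1.8.2, RSEM 1.2.9 and mm10. For each gene symbol the authors deposited an expected count (an RSEM estimate, not always whole) and an FPKM value, per the file headers. The authors also deposited 2 comparison tables with a fold ratio between the diets and posterior probabilities as a score. The sources used here name neither the tool behind them nor whether counting used strand.

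Expected counts were rounded, Rn45s was removed before library sizes were taken, and edgeR 4.0.16 (R 4.3.3; TMM, filterByExpr, quasi-likelihood F test, diet as the only term) tested 14711 genes. Standard errors are the size of the log2 change over the root of F. Levels per length (TPM) are FPKM rescaled to 1e6 per library without Rn45s. The floor of 3 counts per library covers counting error only. The 95% intervals of log2 fold changes use that F test and so include the spread between libraries. The procedure was tested on simulated counts with known changes. Marker sums were compared on log2(CPM + 0.1). Named genes are the 10 members, every called gene of the role lists and the 2 of smallest p in each list. The 3 genes nearest in pattern to each called member were also named. Genes named beyond these (Bmp6, Fst, Smad5, Smad9 and Orc4 among them) were chosen after their values were seen. The members, lists and tests were chosen with earlier results of these data known, so the rise of Inhbb is no independent finding. Alternatives were Rn45s kept, DESeq2 size factors, DESeq2 1.42.0, limma-voom (limma 3.58.1), limma on log2(rescaled FPKM + 0.1 or 1) above a mean of 0.5, a robust fit, other filters and thresholds, and fits without libraries. Gene positions come from GENCODE M21 (GRCm38, the assembly of mm10).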

Additional observations from a re-analysis of the deposited data

How the results depend on the processing

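Inhbb kept its rise in all 9 other settings that tested it, with log2 fold changes from 1.07 (log2 of rescaled FPKM + 1, a pseudocount near its level) to 2.01; with a minimum mean of 5 CPM it was not tested, so 0 members rose. The fall of Id1 was kept in 8 of 10 such settings. The number of members that fell was 0 with the robust fit, with high fat G and control J both left out, and at an adjusted p under 0.01, and 0 to 1 in fits without 1 library. Tgfb2 did not pass in any fit, and its log2 fold change ran from -0.26 to 0.12 in fits without 1 library, turning above 0 without high fat B and without control L. Over all genes, 368 rose and 444 fell on log2(rescaled FPKM + 0.1), 376 and 449 on log2(rescaled FPKM + 1), 244 and 173 with high fat G and control J both left out, 1222 and 1325 at an adjusted p under 0.1, and 181 and 149 under 0.01. Fits without 1 library gave 421 to 759 rises and 318 to 769 falls; the fewest of both came without high fat F. Of the other pathway genes, 5 rose and 8 fell with DESeq2, and 1 and 2 with either FPKM setting. With high fat G and control J both left out, 1 rose and 0 fell. At an adjusted p under 0.1 it was 5 and 11, and under 0.01 it was 0 and 0. In fits without 1 library 1 to 4 rose and 1 to 6 fell, with 1 and 1 without high fat F or control J and 2 and 1 without high fat G. The causes were not tested. The diets share no library letter, so no pairing of libraries was used. Depth limits Inhba, at 4 counts or fewer per library, and Inhbb in control J, at 11.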
